A study of Mus musculus with 6 samples.

Results

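The nuclear factor I (NFI) family comprises 4 mouse genes, Nfia, Nfib, Nfic and Nfix, and all 4 were found by symbol among the 22851 genes of the deposited count table. RNA was sequenced from primary radial glial cells taken from the brains of postnatal day 0 to 3 mice on the C57BL/6J background, grown in medium with 10% serum and then kept without serum for 6 days, which drives them to become multiciliated ependymal cells. The 6 libraries are 3 of the wild type (WT) and 3 of mice whose Edf1, a transcriptional coactivator gene, was knocked out with CRISPR/Cas9 (Edf1 KO). Every culture received the same serum withdrawal, and there was no undifferentiated control. The series text calls the replicates biological, and the labels do not say how many animals went into a culture, so the p-values below measure the spread between these 6 libraries.

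NFI proteins are transcription factors that bind DNA as dimers through a conserved amino-terminal domain, at a palindrome with the core TTGGC. In the developing brain, Nfia and Nfib help to start the production of glia from radial glia, Nfix restrains neural progenitors and is needed for the ependymal lining to mature, and Nfic is best known for its part in tooth root formation. The study asked which genes depend on Edf1 as multiciliated ependymal cells form, and the comparison here is of this family between the genotypes.

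All 4 NFI genes were expressed at day 6 in every library, and none passed the test between the genotypes. Their mean levels in Edf1 KO were between 107% (Nfix) and 119% (Nfia) of WT, a log2 change of 0.093 to 0.23, and the WT and knockout libraries overlapped for all but Nfic. Of all genes tested, 26.9% passed (Benjamini-Hochberg adjusted p under 0.05, quasi-likelihood test of edgeR), beside 0 of the 4 members, a set too small to read further. At an unadjusted p under 0.05 only Nfic passed in edgeR (0.031), DESeq2 also gave no adjusted call, and limma voom gave none either. Levels are given as CPM, read counts scaled to a common library size, with library sizes adjusted by the trimmed mean of M-values (TMM).

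The libraries matched their labels at the targeted gene: Edf1 in Edf1 KO was 13.7% of WT, a log2 change of -2.85 (SE 0.091). Total counts ran from 13071766 in WT replicate 2 to 28087006 in Edf1 KO replicate 3. All 12 ependymal markers listed were detected, with a sum of 1840 to 1991 CPM in WT and 1216 to 1261 CPM in Edf1 KO. Foxj1, the master gene of motile cilia, had 788 ± 43.4 CPM in WT (SD, n = 3). Markers of other cell types were detected too, so detection alone does not establish the labelled cell type. The summed level of 12 microglia markers was 2264 to 2441 CPM in WT and 1453 to 1511 CPM in Edf1 KO, with 11 of the 12 lower (14.2% of all tested genes were called lower and 12.7% higher). The summed level of 10 fibroblast markers was 118 to 145 CPM in WT and 212 to 262 CPM in Edf1 KO, with 9 of the 10 higher. None of these markers was at 0 in all libraries. Of 10 mural and endothelial markers 4 were tested (Cspg4, Acta2, Tagln and Kdr) and all 4 rose. The list's sum was 797 to 837 CPM in WT and 1022 to 1099 CPM in Edf1 KO, nearly all of it Acta2, Tagln and Kdr. The untested markers had few counts, at most 5 in a library for Pecam1, 1 for Cldn5, 11 for Rgs5 and 26 for Cdh5. The presence of mural or endothelial cells is thus not shown by this list. Of 10 pituitary markers 4 were tested, of which 3 rose and 1 fell, with a sum of 17.2 to 20.4 CPM in WT and 29.0 to 35.5 CPM in Edf1 KO and Fshb at 0 in all libraries. The oligodendrocyte lineage sum was 453 to 492 CPM in WT and 423 to 441 CPM in Edf1 KO, most of it Cnp (329 to 371 CPM in WT). Of its 8 tested genes 1 rose and 1 fell, with a median log2 change of 0.0040. The neuron and choroid plexus sums overlapped between the genotypes. Most of the neuron sum was Map2 (210 to 288 CPM in WT), and of 8 tested neuron genes 3 were called lower and 0 higher (median -0.50). NFI genes are also expressed outside the ependymal lineage, so in these bulk samples a change in the number of cells of a type cannot be told apart from a change in RNA per cell, and the part of these other cells in the NFI values was not tested.

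Nfia, which switches radial glia towards gliogenesis, lies on chromosome 4 (chr4:97772734-98118874, plus strand, GRCm38). It had 63.1, 46.2 and 61.4 CPM in WT replicates 1, 2 and 3 and 76.1, 60.4 and 66.2 CPM in Edf1 KO replicates 1, 2 and 3. Edf1 KO replicate 1 was the highest library and WT replicate 2 the lowest, and the groups overlapped because Edf1 KO replicate 2 fell below WT replicates 1 and 3. The means were 56.9 ± 9.34 CPM in WT and 67.5 ± 7.92 CPM in Edf1 KO (SD, n = 3 each). The log2 change was 0.23 (SE 0.11, 95% interval -0.00085 to 0.47), with an adjusted p of 0.132 by edgeR's quasi-likelihood test. In this fit the interval allows at most a 1.39-fold higher level in Edf1 KO.

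Nfib, the partner of Nfia in glial and forebrain development, lies on the same chromosome (chr4:82290173-82705750, minus strand). Its WT libraries were spread widely at 64.1, 45.0 and 78.4 CPM, while the knockout libraries stood together at 72.1, 72.1 and 72.8 CPM. All 3 knockout values lay inside the WT range. The means were 62.5 ± 16.8 CPM in WT and 72.3 ± 0.376 CPM in Edf1 KO, and the log2 change was 0.20 (SE 0.14, 95% interval -0.095 to 0.50, adjusted p 0.309 by edgeR). The WT libraries decided this value: without WT replicate 3 the log2 change rose to 0.39 and passed (adjusted p 0.0223 by edgeR), and without WT replicate 2 it was 0.029 (adjusted p 0.79 by edgeR).

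Nfic (chr10:81396186-81455635, minus strand) had the lowest CPM of the family. It stood at 33.2, 27.5 and 33.6 CPM in WT and at 36.8, 36.7 and 35.5 CPM in Edf1 KO. It was the only member whose groups did not overlap, a pattern shown by 43.3% of all tested genes (21.3% higher and 22.1% lower in Edf1 KO). The means were 31.4 ± 3.4 and 36.3 ± 0.690 CPM (SD, n = 3 each), and the log2 change was 0.20 (SE 0.082, 95% interval 0.022 to 0.38). After adjustment over all tested genes it did not pass (adjusted p 0.0921 by edgeR).

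Nfix (chr8:84699876-84800344, minus strand), the member tied most closely to ependymal maturation, had the highest level and the smallest difference. Its values were 148, 131 and 151 CPM in WT and 155, 156 and 148 CPM in Edf1 KO. WT replicate 3 was above Edf1 KO replicate 3, so the groups overlapped. The means were 143 ± 10.9 and 153 ± 4.33 CPM, with a log2 change of 0.093 (SE 0.060, 95% interval -0.038 to 0.22, adjusted p 0.287 by edgeR). In this fit the interval runs from 0.974 to 1.17 of the WT level. The log2 change was 0.033 (SE 0.041) without WT replicate 2 and 0.011 (SE 0.046) after a correction for transcript length and GC content. The lower bound therefore holds for the reported fit only.

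**Figure D1:**
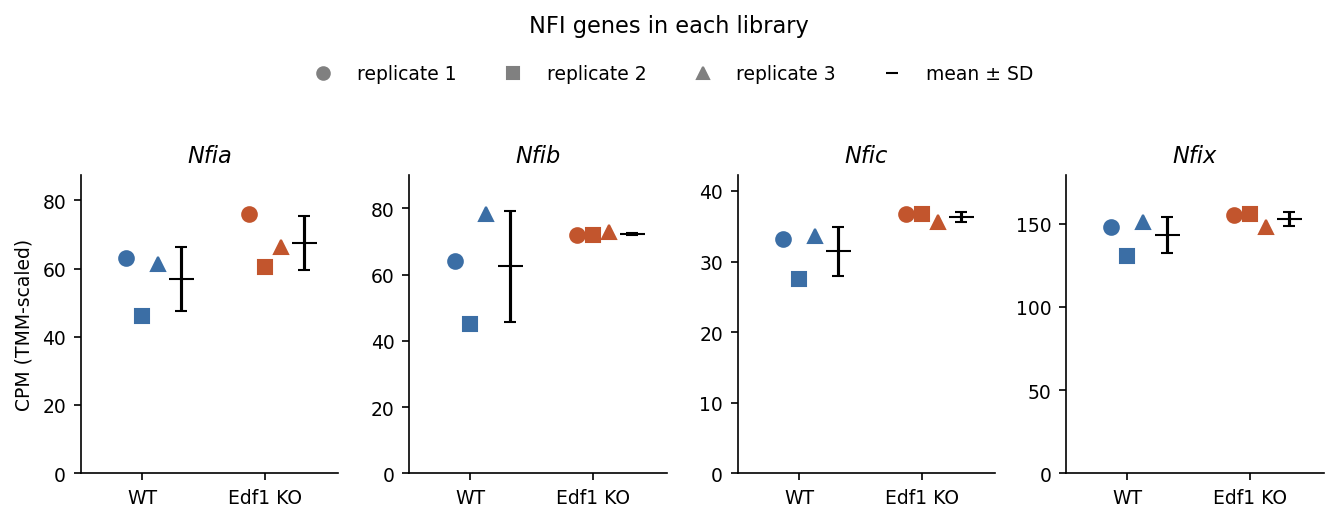
CPM of the 4 NFI genes (vertical axes from 0) in each WT and Edf1 KO library, with a symbol for each replicate number and the mean ± SD beside each group. WT replicate 2 is the lowest of the 6 libraries for every member, and Nfic is the gene whose groups do not overlap.

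WT replicate 2 was the lowest of the 6 libraries for all 4 members. Against the mean of the other WT libraries it was lower by 0.43 for Nfia, 0.65 for Nfib, 0.28 for Nfic and 0.19 for Nfix on the log2 CPM scale. This library, which has the lowest total count, was the lowest for 28.8% of all tested genes and the highest for 30.6%. Among the 3281 tested genes with a longest annotated transcript of at least 5000 bases it was the lowest for 59.5%, and the median of those genes lay 0.17 below the other WT libraries on the log2 scale. The 4 members belong to that class, with longest transcripts of 9526 bases for Nfia, 9116 for Nfib, 6237 for Nfic and 5476 for Nfix.

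Without WT replicate 2 the log2 changes fell to 0.11 for Nfia, 0.029 for Nfib, 0.12 for Nfic and 0.033 for Nfix, with adjusted ps of 0.168 to 0.79 by edgeR. A correction of each library for its trend with transcript length and GC content gave 0.11, 0.090, 0.10 and 0.011 in the same order. Each of the 4 differences was smaller in both cases, and no member changed direction in any of the 15 alternatives tried. Why WT replicate 2 differs was not tested. Leaving out Edf1 KO replicate 1 also lowered Nfia, to 0.15.

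**Figure D2:**
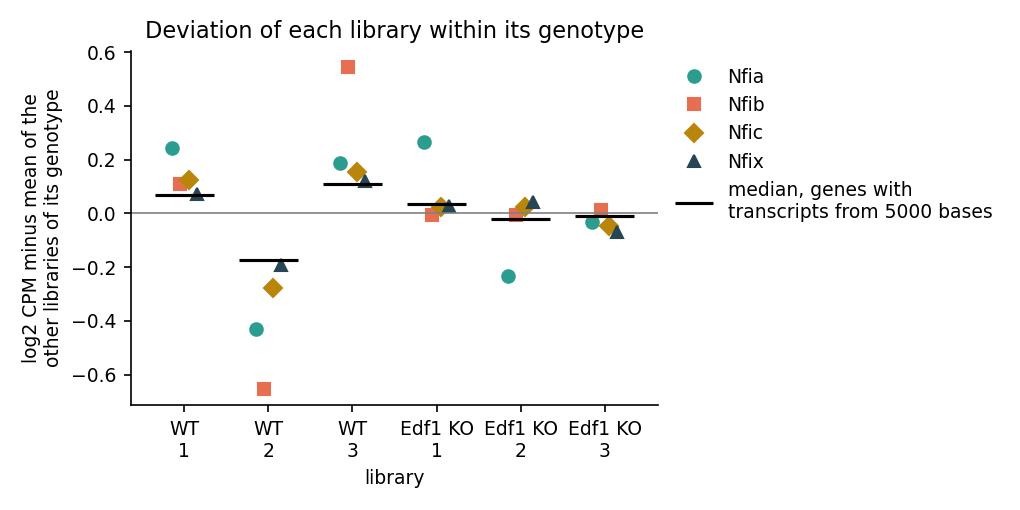
Deviation of each library from the mean of the other libraries of its genotype (log2 CPM, vertical axis) for the 4 members (points) and the median of the 3281 tested genes with transcripts of at least 5000 bases (black lines). In WT replicate 2 all 4 members lie below 0, as does the line at -0.17.

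**Figure D3:**
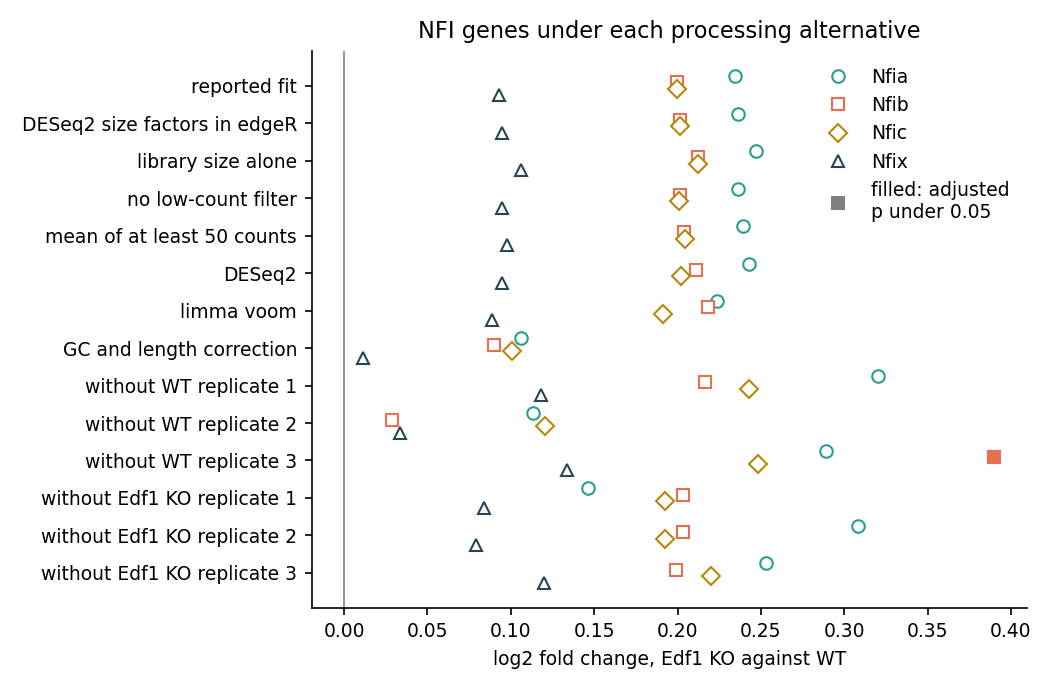
Log2 change of the 4 members, Edf1 KO against WT (horizontal axis), in the reported fit and 13 alternative fits, with filled symbols for an adjusted p under 0.05. All values lie above 0, and the only filled symbol is Nfib without WT replicate 3; the fit with a replicate block, which called Nfia, is not drawn and its value stands in the closing section.

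The family was then compared by level per length, as longer transcripts collect more reads. Per kilobase of merged exons in the GENCODE M21 annotation, Nfix was the most abundant member in each library. It had 19.5 ± 1.48 CPM per kilobase in WT and 20.8 ± 0.589 in Edf1 KO, and its lowest library, at 17.8, was far above the highest value of any other member, 6.98 for Nfia in Edf1 KO replicate 1. Nfia followed with 5.22 ± 0.857 in WT and 6.20 ± 0.727 in Edf1 KO. Nfic had 4.74 ± 0.514 and 5.48 ± 0.104, and Nfib 4.18 ± 1.12 and 4.84 ± 0.0251 (CPM per kilobase, SD, n = 3 each). The ranges of Nfia, Nfic and Nfib overlapped over the libraries (4.24 to 6.98, 4.15 to 5.55 and 3.01 to 5.24 CPM per kilobase), so their order is not set beyond the spread. With the longest transcript as the length, Nfib came above Nfia in WT, at 6.85 against 5.97 CPM per kilobase, while Nfix stayed first.

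Nfix made up 58.1% ± 2.48 of the family total per length in WT and 55.8% ± 1.23 in Edf1 KO. The shares were 15.5% ± 0.974 and 16.6% ± 1.62 for Nfia, 14.1% ± 0.183 and 14.7% ± 0.247 for Nfic, and 12.3% ± 2.03 and 12.95% ± 0.402 for Nfib (SD, n = 3 each). The summed level was 35.2, 29.2 and 36.5 CPM per kilobase in WT replicates 1, 2 and 3 and 38.5, 37.1 and 36.5 in Edf1 KO replicates. WT replicate 2 stood apart from the other libraries in this sum, and the rest lay between 35.2 and 38.5.

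**Figure D4:**
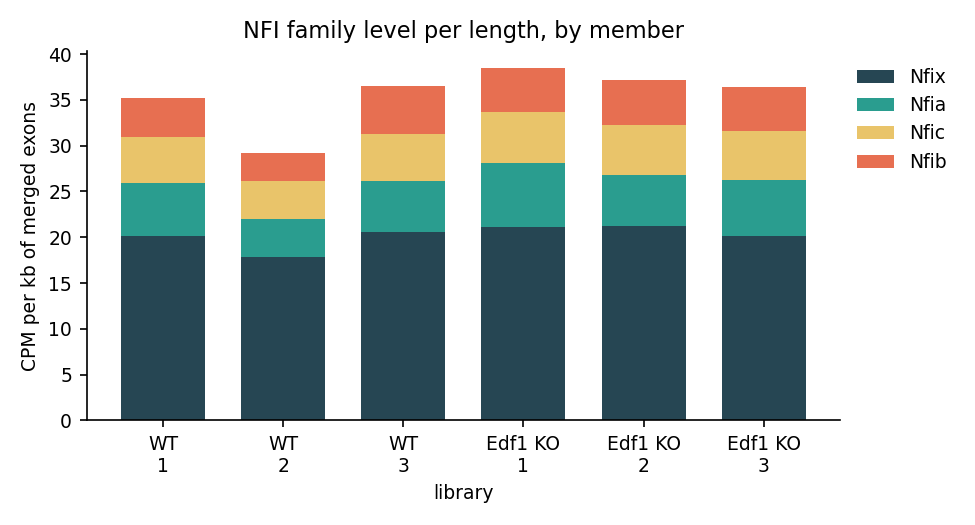
Stacked level of the NFI genes in CPM per kilobase of merged exons (vertical axis from 0) in each library, by member. Nfix is the largest part of each bar, and the bar of WT replicate 2 is the lowest at 29.2.

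Ratios between members within a library do not depend on how libraries are scaled to each other. Of the 6 member pairs, none differed between the genotypes in an exact two-sided permutation test, whose smallest possible p-value with 3 against 3 libraries is 0.1. The ratio of Nfic to Nfix had the lowest p-value, 0.1 (0.6 after Benjamini-Hochberg adjustment over the 6 pairs), with a log2 ratio of -2.19 ± 0.051 in WT and -2.07 ± 0.014 in Edf1 KO and no overlap between the groups. For the other pairs the log2 ratio differed by 0.0075 (Nfia to Nfib) to 0.16 (Nfia to Nfix), with exact permutation p-values of 0.4 to 1. A test this small cannot show that the members kept the same proportions.

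Foxj1, which Nfix has been reported to activate in ependymal cells, was called lower, and its level relative to each NFI gene is given as a description. The ratio of Foxj1 to Nfix CPM was 5.19, 6.40 and 5.02 in WT replicates 1, 2 and 3 and 3.34, 3.31 and 3.61 in Edf1 KO replicates. Every knockout library was below every WT library. The log2 ratio of Foxj1 to the member was lower in Edf1 KO by 0.84 for Nfia, 0.84 for Nfib, 0.80 for Nfic and 0.69 for Nfix, without overlap for any of the 4. These 4 ratios share Foxj1 and follow from its fall and the slightly higher member levels given above, so they are no further evidence.

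Genes reported as NFI targets in neural tissue moved in both directions. Of 15 listed, 12 were tested, of which 4 rose, 3 fell and 5 did not pass, a share of calls to be read against the 26.9% of all tested genes called, with 12.7% higher and 14.2% lower. The median log2 change of the 12 was 0.12, against 0.0029 over all tested genes. Without WT replicate 2 it was 0.066. Insc, Cntn2 and Gabra6, which are targets described in dividing progenitors and cerebellar neurons, had at most 7 counts in any library and were not tested.

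Foxj1 had 767, 838 and 759 CPM in WT and 517, 517 and 535 CPM in Edf1 KO, a log2 change of -0.59 (SE 0.049). Gfap, the intermediate filament gene of astrocytes and a classical NFI target, stood at 526, 575 and 517 CPM in WT and fell to 412, 415 and 380 CPM, a log2 change of -0.42 (SE 0.054). Mmd2, described as a joint target of NFIA and SOX9 in early gliogenesis, fell from 92.4, 95.3 and 94.3 CPM to 79.7, 81.2 and 79.6 CPM, a log2 change of -0.23 (SE 0.052). In all 3 genes the WT libraries were above the knockout libraries.

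Fabp7, which encodes the brain lipid binding protein of radial glia, rose from 432, 439 and 450 CPM to 485, 530 and 505 CPM, a log2 change of 0.20 (SE 0.047). Cdh2, the N-cadherin gene, changed by 0.17 (SE 0.042) and Efnb1, which encodes ephrin B1, by 0.54 (SE 0.089). Apcdd1, an inhibitor of Wnt signalling and another joint target of NFIA and SOX9, had the largest rise, from 2.30 ± 0.13 to 6.17 ± 0.60 CPM (SD, n = 3 each), a log2 change of 1.40 (SE 0.17). The adjusted ps of the 7 called targets were at most 0.0105 by edgeR's quasi-likelihood test. The Cdh2 call was lost without Edf1 KO replicate 1 (adjusted p 0.0543 by edgeR).

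The other 5 tested targets did not pass. Hes1, a Notch effector that keeps progenitors undifferentiated, had a log2 change of 0.26 (adjusted p 0.0533 by edgeR). It passed in 4 alternatives, among them without Edf1 KO replicate 1 (0.34, adjusted p 0.0233 by edgeR), and its adjusted ps over all alternatives were 0.0047 to 0.21. Sox9, which acts with and upstream of Nfia, was at 200 ± 6.86 CPM in WT and 204 ± 4.74 CPM in Edf1 KO (log2 change 0.027). Ezh2, the histone methyltransferase gene, had -0.079. Bbx and Zcchc24 had 0.30 and 0.062, and Bbx shared the low value of WT replicate 2 with the NFI genes (24.1 CPM against 40.4 and 41.0 in the other WT libraries), without which its log2 change was 0.11.

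**Figure D5:**
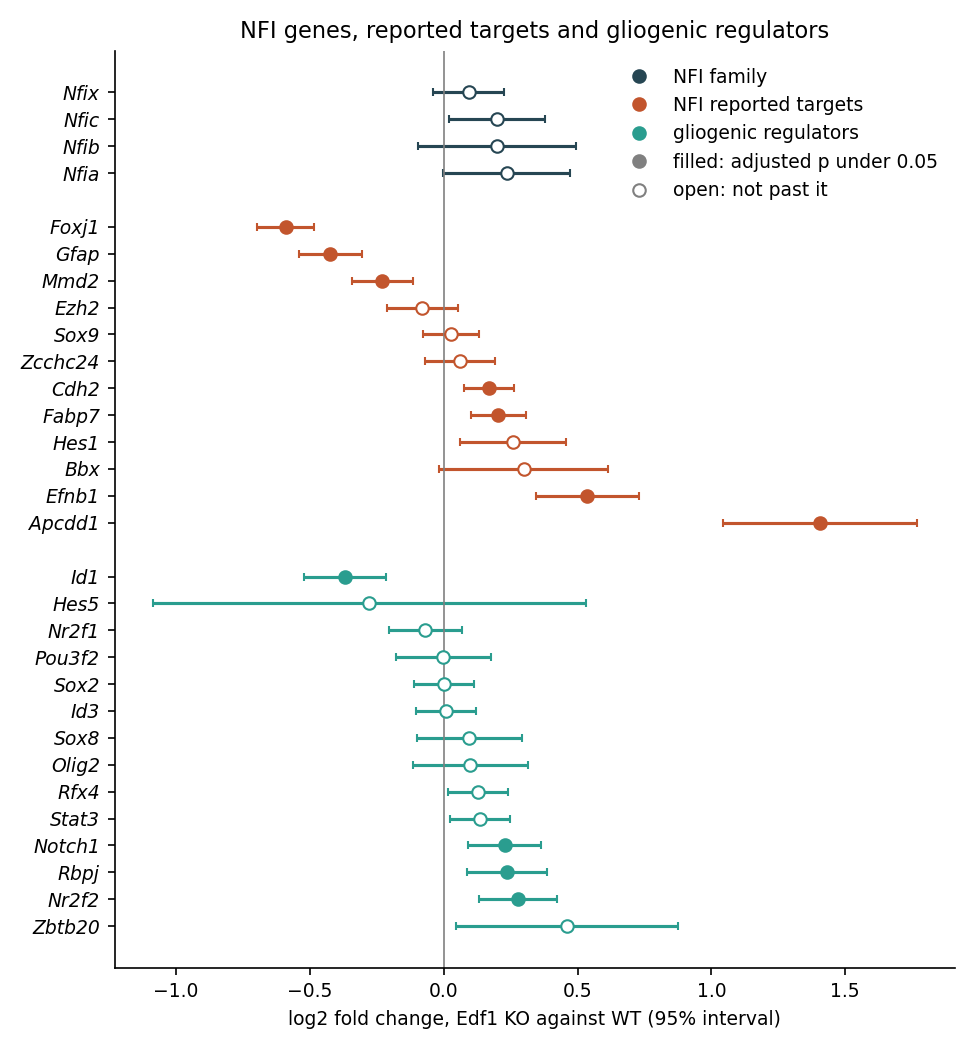
Log2 change, Edf1 KO against WT, with its 95% interval from edgeR (horizontal axis) for the NFI genes, their reported targets and regulators of gliogenesis, with filled circles for an adjusted p under 0.05. The 4 NFI genes lie between 0.093 and 0.23 with open circles, while targets run from -0.59 for Foxj1 to 1.40 for Apcdd1.

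Promoters of 3 called genes, picked for holding the core, are shown because each has the TTGGC core of the NFI site, in a gene that rose (Fabp7) or fell (Mmd2, and S100b of the astrocyte and ependymal lists). Each sequence is the 250 bases before the RefSeq start, read 5′ to 3′ on the gene's strand in GRCm38.p6, with TTGGC or its reverse complement GCCAA in capitals.
Fabp7, chr10:57784673-57784922, plus strand: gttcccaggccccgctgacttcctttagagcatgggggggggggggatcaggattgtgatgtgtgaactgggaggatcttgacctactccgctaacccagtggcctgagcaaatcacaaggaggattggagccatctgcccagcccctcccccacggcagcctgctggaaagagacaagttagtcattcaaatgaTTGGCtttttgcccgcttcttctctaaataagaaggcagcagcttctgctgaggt
Mmd2, chr5:142608753-142609002, minus strand: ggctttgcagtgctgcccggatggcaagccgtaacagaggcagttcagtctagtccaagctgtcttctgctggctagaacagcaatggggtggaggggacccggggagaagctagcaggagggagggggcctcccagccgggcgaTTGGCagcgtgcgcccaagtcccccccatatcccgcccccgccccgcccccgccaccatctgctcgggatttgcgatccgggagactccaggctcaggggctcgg
S100b, chr10:76253586-76253835, plus strand: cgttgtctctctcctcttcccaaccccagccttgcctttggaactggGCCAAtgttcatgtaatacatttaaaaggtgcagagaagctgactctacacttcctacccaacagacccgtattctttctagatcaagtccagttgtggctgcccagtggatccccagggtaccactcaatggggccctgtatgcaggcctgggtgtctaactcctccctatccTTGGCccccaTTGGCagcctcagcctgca

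The core begins 55 bases before the start in Fabp7 and 105 bases before it in Mmd2, and S100b holds 3 matches, at 203, 29 and 19 bases. Searched on both strands, TTGGC was found in 8 of the 9 reported targets with a RefSeq promoter and in 41.5% of all 32851 promoter windows of this length, or 45.3% of the 27025 genes. It was also in 9 of 13 gliogenic regulators, 7 of 10 radial glia genes, 5 of 9 ependymal genes and 6 of 12 astrocyte genes. Gfap, which fell, was the target without a match, and S100b is not on the target list. The full palindrome, TTGGC followed after 5 bases by GCCAA, contains the core and was in 0 of the 9 and in 12 of all windows. Among the members, Nfia and Nfic had no match, and Nfix had a match before 2 of its 4 RefSeq starts. The windows of Nfia, Nfic and Nfix are not at the 5′ ends of the gene spans given above. That of Nfia (chr4:97581693-97581942) lies outside its span, and that of Nfic (chr10:81427174-81427423) lies inside. The 4 windows of Nfix, between chr8:84772876 and chr8:84780332, also lie inside its span. These matches describe letters only. Fabp7, a target that rose, carried a match. Among the targets that fell only Mmd2 did, as Gfap had none and Foxj1 had no RefSeq entry.

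Regulators of gliogenesis, several of which act upstream of NFI genes or together with them, were called at about the background share. Of 16 listed and tested, 3 rose and 1 fell, beside 26.9% of all genes called. The median log2 change was 0.098, and 0.041 without WT replicate 2. Notch1 and Rbpj, the receptor and nuclear mediator of Notch signalling, which induces Nfia in progenitors, had log2 changes of 0.23 (SE 0.063) and 0.24 (SE 0.069), with adjusted ps of 0.0178 and 0.0231 by edgeR. Both calls were lost without Edf1 KO replicate 2 (adjusted ps 0.0653 and 0.0928 by edgeR), where the list kept 2 calls. Notch1 was also lost without Edf1 KO replicate 1 (0.0902) and Rbpj without Edf1 KO replicate 3 (0.0765), and the correction for length and GC content lowered Notch1 to 0.080 (0.147, adjusted ps by edgeR).

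Nr2f2, a nuclear receptor gene that helps progenitors turn from making neurons to making glia, rose by 0.28 (SE 0.068). Its call was lost without WT replicate 1 (adjusted p 0.0505 by edgeR). Id1, an effector of BMP signalling that holds back differentiation, fell by 0.37 on the log2 scale (SE 0.070, adjusted p 0.00195 by edgeR). Zbtb20, a promoter of astrocyte formation, had 27.3, 15.1 and 31.1 CPM in WT and 38.2, 27.9 and 37.0 CPM in Edf1 KO, with WT replicate 2 again lowest (log2 change 0.46, SE 0.19, adjusted p 0.0951 by edgeR). It passed without WT replicate 3 (0.65, adjusted p 0.0263 by edgeR) and without the filter on low counts (0.0391), and its log2 change was 0.24 without WT replicate 2. Stat3 and Rfx4 had 0.14 and 0.13, and Sox2, Sox8, Id3, Olig2, Pou3f2 and Nr2f1 lay between -0.069 and 0.099. Hes5 was near the limit of detection, at 0.88 CPM in WT and 0.66 CPM in Edf1 KO.

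Genes that mark the fates NFI factors act on are read against 26.9% of all tested genes called (12.7% higher, 14.2% lower). Of 12 ependymal genes 11 fell and none rose, with a median log2 change of -0.62, led by Spag17 (-1.78) and Tmem212 (-1.40), while Mia had 0.014. Of 11 radial glia genes 5 rose and 1 fell (median 0.14), with Tnc at 0.45, Nes at 0.40 and Prom1 at -0.27. Of 15 astrocyte genes 6 fell and 1 rose (median -0.12), with Gjb6 at -1.49, S100b at -0.65 and Aldh1l1 at 0.49. Without WT replicate 2 the astrocyte list had 9 lower and 2 higher calls. The microglia, fibroblast, mural and endothelial, pituitary and oligodendrocyte lineage sums above also differed between the genotypes without overlap, and their part in the result was not tested. The last 3 of these sums rest on a few genes each, so the sums are not read as a shift of those cell types. The pituitary sum hides genes that moved in opposite directions, given above, and whether pituitary cells were present was not tested. Several of these lists share genes (Gfap, Foxj1, S100b, Fabp7, Cdh2, Hes1, Hes5, Sox2, Sox9, Olig2 and Cspg4 are each on 2 of those described here), so they are not separate evidence.

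The genes whose levels ran most like each member over the 6 libraries were ranked by Pearson's r of log2 CPM among 9310 genes with a mean log2 CPM of at least 4. With 6 libraries and so many genes, values near 1 are common: between 99 and 377 genes exceeded 0.95 for a given member. Nfia was followed most closely by Helz, Brwd1 and Rims2 (r 0.988 to 0.997), and Nfib by Ptprj, Utp20 and Ston1 (0.994 to 0.996). Nfic ran with Ndst1, Afap1 and Atp2b4 (0.997 to 0.999), and Nfix with Uhmk1, Ankfy1 and Rubcn (0.996 to 0.997). Of these 12 genes only Ndst1 (0.32, adjusted p 0.0288 by edgeR) and Atp2b4 (0.37, 0.0216) passed the test between the genotypes.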

How the data were processed

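Per the submitters' processing notes, reads were checked with FastQC 0.11.2, trimmed with cutadapt 1.11 and aligned with HISAT2 2.1.0 to GRCm38. The counting program, annotation and strand setting are not given in the sources used here. The deposited values are whole-number read counts per gene symbol, 1 column per library, with 0 rows naming no gene and 0 unused columns. Library totals were 13071766 to 28087006, and members had 354 to 4184 counts in a library.

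Counts were filtered with filterByExpr (14243 genes kept) and tested with edgeR 4.0.16 (TMM, quasi-likelihood, no covariate, Benjamini-Hochberg over all tested genes, threshold 0.05) in R 4.3.3. Intervals (95%) use the quasi-likelihood standard error and its moderated degrees of freedom and are not adjusted. The settings varied were the scaling, the filter, DESeq2 1.42.0, limma 3.58.1 voom, a block for the replicate number, a threshold of 0.01, leaving out each library, and a spline correction (4 degrees of freedom each) for transcript length and GC content. The fits were tried on simulated counts with 200 of 14243 genes changed 2-fold, where edgeR recovered 93% of them and 7% of its calls were false. Changes as small as those of the members, and library trends with length, were not simulated. Ratios were tested by exact permutation (scipy 1.17.1).

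Lengths come from GENCODE M21 (GRCm38), which may not be the annotation the authors counted with. Member exons share at most 1.65% of their 31-mers with other genes, and opposite-strand genes overlap at most 1.86% of them. Promoters come from RefSeq (GRCm38.p6), with no entry found for Nfib or Foxj1.

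Members and lists were chosen with earlier results of these data known. Named are the members, all target and regulator genes, the 2 largest called rises and falls of each other list, the 3 genes most alike to each member, and Edf1. Mia, the pituitary genes given with values, the Foxj1 ratios and the 5000-base class were chosen after values were seen.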

Additional observations from a re-analysis of the deposited data

How the results depend on the processing

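Member calls changed in 2 of 15 alternatives: the replicate number as a block gave 1 call (Nfia, log2 fold change 0.25, adjusted p-value 0.014 by edgeR), and the fits without 1 library gave 0 to 1. The deviations of same-numbered libraries had correlations of 0.069, 0.060 and 0.037, and those of differently numbered libraries -0.072 to 0.029. Each was best with its own number, but values this near 0 do not show a pairing, and none was assumed. The block gave 4065 changed genes and also called Zbtb20 (0.51, adjusted p 0.00476) and Bbx (0.33, adjusted p 0.0354 by edgeR). All genes changed numbered 3833, and 2213 at a threshold of 0.01 (965 higher, 1248 lower); without 1 library they numbered 2658 to 4340. At 0.01 the gliogenic regulators kept 2 calls, and without 1 library 2 to 5. Astrocyte genes had 11 calls after the length and GC correction and 6 to 11 without 1 library. The share of Nfix in the family fell to 49.9% with coding length and ran from 56.2% to 57.4% without 1 library. Library size alone moved the share of lower calls from 52.9% to 49.7%.

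Directions reversed for 4 regulators and 4 ratios between members, none past its test. Pou3f2 (-0.00085) was 0.00096 with DESeq2 size factors, 0.012 with library size alone, 0.00086 without the filter, 0.0037 with a mean of 50 counts, 0.0010 in DESeq2, 0.00048 with the block, and -0.053 to 0.056 without 1 library. Without 1 library Sox2 ran from -0.037 to 0.041, Id3 from -0.0036 to 0.028, Olig2 from -0.019 to 0.19, and the log2 ratio differences from -0.11 to 0.083 (Nfia to Nfib), -0.040 to 0.12 (Nfia to Nfic), -0.093 to 0.16 (Nfib to Nfic) and -0.0050 to 0.29 (Nfib to Nfix). The cause was not tested.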
